A study of Mus musculus with 6 samples.

Results

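Transcript levels of 50 genes of the spindle checkpoint, the kinetochore, the condensin complex and the mitotic kinases were compared between TKI258-treated and water-treated mouse mammary tumors. The genes were taken from a list of symbols, and each was read from an array probe set naming exactly 1 gene. Where a gene had several such probe sets, the one with the highest mean over the 6 arrays was used. All 50 genes were measured, out of 19937 genes on the array. The shugoshin genes Sgol1 and Sgol2a were found under their current symbols Sgo1 and Sgo2a. The data came from 3 tumors of mice treated with TKI258 and 3 tumors of mice treated with water, each hybridized to its own Affymetrix array. All mice were Balb/C and had received 750000 cells of 4T1, an established mouse mammary carcinoma line, in mammary gland 4. From day 7 the TKI258 group received 40 mg/kg orally every day for 14 days, and the water group received oral water on the same schedule. TKI258 (dovitinib) inhibits several receptor tyrosine kinases, among them receptors for FGF, VEGF and PDGF.

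During mitosis, sister chromatids attach to spindle microtubules through the kinetochore, a protein assembly built on centromeric chromatin. The spindle checkpoint delays anaphase until every kinetochore is attached, by holding CDC20, the activator of the anaphase-promoting complex, in an inhibited state. Aurora, Polo-like and NEK kinases drive spindle assembly and attachment correction, condensin compacts the chromosomes, and separase finally cleaves the cohesin that holds sisters together. The transcripts of many of these genes accumulate in G2 and mitosis, so in a piece of tissue their level also reflects how many cells are dividing.

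Signals are log2 values per probe set, and differences are TKI258 minus water. The whole tumor was profiled, so fewer dividing cells and less RNA per dividing cell cannot be told apart. Correlations between arrays ran from 0.981 to 0.993 within the TKI258 group and from 0.988 to 0.992 within the water group. Among 8 epithelial tumor markers, the keratin gene Krt8 lay between 11.55 and 11.77 in TKI258 tumors and between 11.74 and 11.88 in water tumors. Krt18, its partner keratin, was 11.44, 11.36 and 11.13 in TKI258 tumors, against 11.63, 11.70 and 11.58 in water tumors (difference -0.32 ± 0.11 SE, adjusted p = 0.581), without overlap. Krt8 and Krt18 were the 2 lower markers of the 8, and the other 6 were higher. Of those, Krt7 (0.88 ± 0.36, adjusted p = 0.615) and Cldn3 (0.65 ± 0.18, adjusted p = 0.572) were higher without overlap. The mean over the 8 markers was 8.65 ± 0.19 in TKI258 tumors and 8.36 ± 0.32 in water tumors (SD, n = 3 each). TKI258 replicate 3 and water replicate 1 stood apart in B cell markers, with list means of 9.13 and 6.97 against 4.72 to 5.03 in the other 4 tumors.

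Nearly all of the mitotic genes were lower in TKI258 tumors, by small and similar amounts. The median difference over the 50 genes was -0.37, against 0.02 over all 19937 genes, and 49 of 50 had a lower mean in TKI258 tumors, against 43.4% of all genes. With median centring of the arrays 50 were lower, and with renewed quantile normalization 48 were lower. The differences spanned -0.64 for Bub1 to 0.02 for Mad1l1. In 43 of the 50 genes (86.0%) every TKI258 tumor lay below every water tumor, which held for 6.49% of all genes. No gene of the 50 had all TKI258 tumors above all water tumors, against 8.66% of all genes.

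No gene of the 50 passed the test over the whole array. In limma with Benjamini-Hochberg adjustment over all 34760 probe sets the adjusted p-values ran from 0.484 to 0.971, and the share of all genes that passed at 0.05 was 0%. At an unadjusted limma p under 0.05, 38 of the 50 genes (76.0%) were lower and 0 were higher, against 3.35% of all genes lower and 3.79% higher. At an unadjusted p under 0.01, 21 of the 50 were lower, against 0.853% of all genes. All 50 genes lay above the median signal of all genes. Among the 9968 genes above that median 5.29% were lower at an unadjusted p under 0.05 and 10.6% had TKI258 tumors below all water tumors. The genes vary together across tumors, so these counts are not 50 separate observations.

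**Figure D1:**
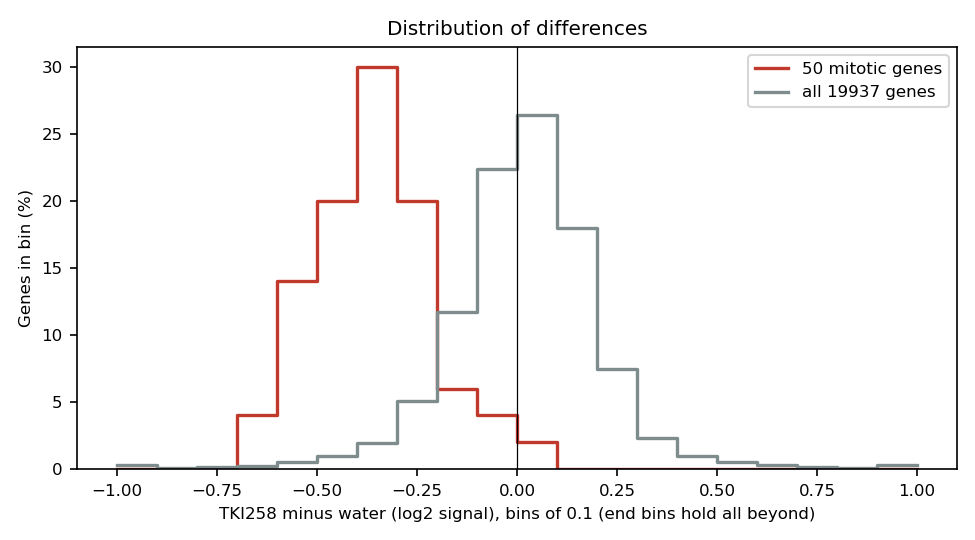
Share of genes (%) in each bin of the difference TKI258 minus water (log2 signal), for the 50 mitotic genes and for all 19937 genes. The mitotic genes centre on a median of -0.37, while all genes centre on 0.02.

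The shift was present in every TKI258 tumor. Each gene was set against its own mean in the water group, and the median over the 50 genes was taken in each tumor. That median was -0.36, -0.34 and -0.41 in TKI258 replicates 1, 2 and 3, against -0.07, -0.07 and 0.13 in water replicates 1, 2 and 3. Over all genes the same medians lay between 0.01 and 0.03 in TKI258 tumors and between -0.03 and 0.01 in water tumors.

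TKI258 replicates 1, 2 and 3 lay below all water tumors for 47, 46 and 46 of the 50 genes, and the same held for 19.3%, 22.1% and 32.7% of all genes. Water replicates 1, 2 and 3 lay above all TKI258 tumors for 45, 44 and 48 genes, and for 19.2%, 24.4% and 23.4% of all genes. The extremes were less evenly spread: TKI258 replicate 3 held the lowest value of 28 genes, and water replicate 3 held the highest value of 42. The matching shares over all genes were not taken. TKI258 replicate 3 also had the largest share of all genes below all water tumors (32.7%), so its extremes may not be particular to the mitotic genes. The spread within groups was small, with a median SD over the 50 genes of 0.09 in TKI258 tumors and 0.14 in water tumors. In 39 of the 50 genes the SD was smaller among TKI258 tumors. The matching share of all genes was not taken here either, so this may not be particular to the mitotic genes.

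**Figure D2:**
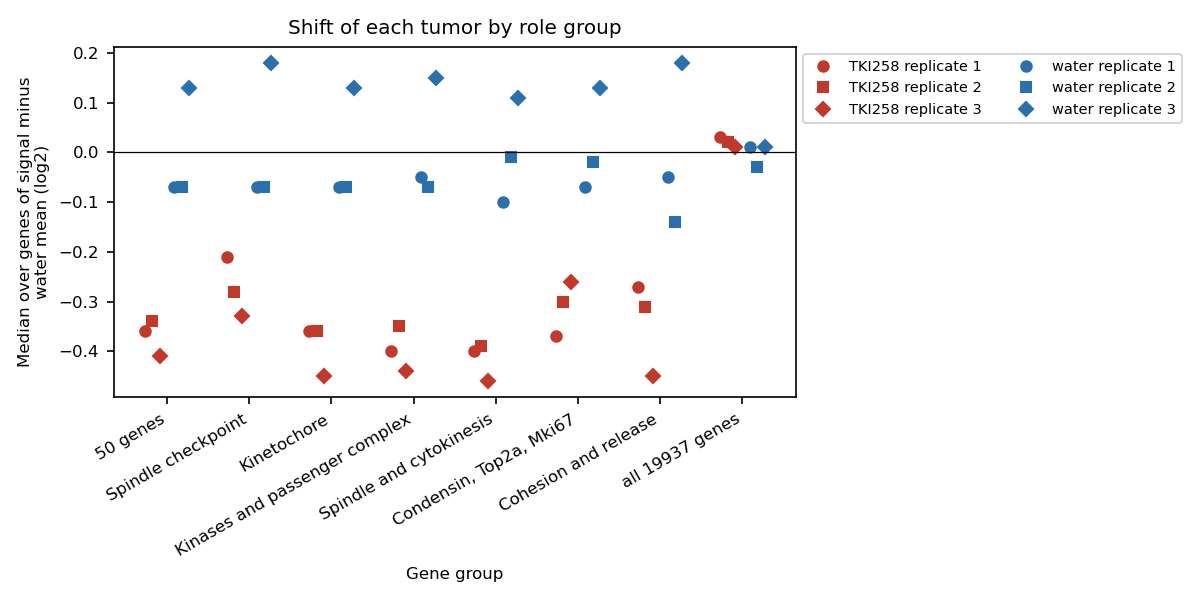
Median over the genes of a role group of each gene's signal minus its mean in the water tumors (log2), with 1 point per tumor and a marker shape per replicate number. In every role group the 3 TKI258 tumors lie below the 3 water tumors, while the medians over all genes stay within 0.03 of 0.

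Other cell types also differed between the groups. Keratinocyte markers averaged 5.41, 5.18 and 5.62 in TKI258 tumors, against 5.36, 7.71 and 7.46 in water tumors, with 10 of 10 markers lower in the TKI258 group mean. Adipocyte markers averaged 7.13, 7.80 and 8.59 in TKI258 tumors, against 7.03, 6.01 and 6.54 in water tumors, with 8 of 8 higher. The keratinocyte list mean of water replicate 1 lay within the range of the TKI258 tumors. Neutrophil markers averaged 6.44, 6.38 and 6.25 in TKI258 tumors, against 6.89, 6.91 and 7.14 in water tumors, with 6 of 8 lower and no overlap of the list means. Macrophage markers averaged 9.74, 9.92 and 9.78 in TKI258 tumors, against 9.84, 10.42 and 9.93 in water tumors, and skeletal muscle markers 6.56, 6.37 and 6.14 in TKI258 tumors, against 6.13, 7.53 and 6.42 in water tumors. Both lists had 8 of 8 markers lower in the TKI258 group mean, and both were highest in water replicate 2. Without that tumor, a comparison added after the data were seen, the difference of the macrophage list was -0.07, against -0.25 with all tumors, and that of the muscle list 0.08, against -0.33. Endothelial markers were lower in 6 of 8 (list mean 7.43 ± 0.27 in TKI258 tumors and 7.63 ± 0.21 in water tumors, SD, n = 3 each). Fibroblast markers were higher in 6 of 8, with a difference of 0.22 in the list mean. T and NK cell markers averaged 5.53, 5.41 and 7.69 in TKI258 tumors, against 6.47, 5.53 and 5.82 in water tumors. The difference of that list was 0.27, and without TKI258 replicate 3, its highest tumor, it was -0.47. The B cell list likewise differed by 0.81, and by -0.57 without TKI258 replicate 3. When TKI258 replicate 3 and water replicate 1, the tumors high in B cell markers, were left out together, the median difference of the mitotic genes was -0.39. The part of the cells that these marker lists stand for, epithelial, keratinocyte, B cell and T and NK cell lists included, in the shift of the mitotic genes was not tested.

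Promoters of the same genes were also searched for letters known from genes of mitosis. The genes were listed for their role in mitosis, so the shares found do not test the shift. Promoters of G2 and mitosis genes often carry a cell cycle genes homology region (CHR), which is bound by LIN54 within the repressive DREAM complex in resting cells and within MYBL2 and FOXM1 complexes in dividing cells. They also often carry CCAAT boxes, bound by NF-Y, and some carry E2F sites. RefSeq promoters (build GRCm38.p6) running from 250 bases before to 50 bases after the start were matched for 44 of the 50 genes and for 15562 array genes. Where a gene had several starts, as 6 of the 44 did, the start listed first was used. Letters were searched on both strands. For the CHR these were TTTGAA and, as its variant, the letters TTTAAA, which read the same on both strands. The CCAAT box was searched as CCAAT. An E2F match was any of the 3 forms TTGGCGC, the form TTCCCGC and the form TTCGCGC, and the reverse of the one named first can share letters with a CCAAT box.

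CHR letters were present in 27 of 44 promoters of the mitotic genes (61.4%), against 24.0% of all promoters. CCAAT was present in 32 (72.7%), against 38.3%, and E2F letters in 11 (25.0%), against 11.2%. CHR and CCAAT occurred together in 23 of 44 (52.3%), against 9.62% of all promoters. These letters are short, and a match is not a binding site.

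**Figure D3:**
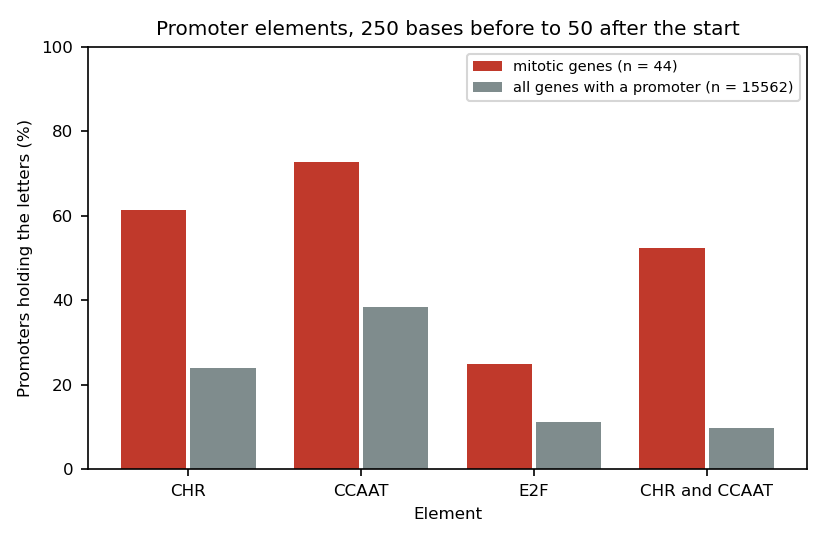
Percent of promoters that hold CHR, CCAAT or E2F letters, or CHR together with CCAAT, for 44 mitotic genes and for 15562 array genes. CHR with CCAAT stands at 52.3% in the mitotic genes and at 9.62% in all promoters.

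The promoters of 6 genes are shown, from 150 bases before to 50 bases after the start, with CHR, CCAAT and E2F letters of either strand in capitals. Aurka, Plk1 and Ttk are kinase genes whose groups did not overlap, Cdc20 and Zwint are genes whose groups overlapped, and Nusap1 is the gene with the smallest p-value of the 50. The positions are chr2:172370521-172370720 on the minus strand for Aurka, chr7:122159285-122159484 on the plus strand for Plk1, chr9:83834539-83834738 on the plus strand for Ttk, chr4:118437294-118437493 on the minus strand for Cdc20, chr10:72654696-72654895 on the plus strand for Zwint and chr2:119618148-119618347 on the plus strand for Nusap1.
Aurka: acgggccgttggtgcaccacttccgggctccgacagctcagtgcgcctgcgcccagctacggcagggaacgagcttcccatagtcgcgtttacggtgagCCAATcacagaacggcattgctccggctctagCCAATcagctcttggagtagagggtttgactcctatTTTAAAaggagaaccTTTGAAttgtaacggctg
Plk1: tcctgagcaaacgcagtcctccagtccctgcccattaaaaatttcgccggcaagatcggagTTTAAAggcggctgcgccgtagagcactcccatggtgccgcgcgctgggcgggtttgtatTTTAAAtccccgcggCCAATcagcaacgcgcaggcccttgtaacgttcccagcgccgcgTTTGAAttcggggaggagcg
Ttk: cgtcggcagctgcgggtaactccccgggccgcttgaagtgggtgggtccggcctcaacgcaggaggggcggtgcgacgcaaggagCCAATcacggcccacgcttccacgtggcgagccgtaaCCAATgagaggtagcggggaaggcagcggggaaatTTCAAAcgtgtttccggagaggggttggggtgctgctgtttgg
Cdc20: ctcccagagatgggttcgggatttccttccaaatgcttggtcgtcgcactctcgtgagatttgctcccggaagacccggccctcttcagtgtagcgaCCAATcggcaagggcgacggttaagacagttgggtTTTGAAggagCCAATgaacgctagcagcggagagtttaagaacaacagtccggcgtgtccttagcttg
Zwint: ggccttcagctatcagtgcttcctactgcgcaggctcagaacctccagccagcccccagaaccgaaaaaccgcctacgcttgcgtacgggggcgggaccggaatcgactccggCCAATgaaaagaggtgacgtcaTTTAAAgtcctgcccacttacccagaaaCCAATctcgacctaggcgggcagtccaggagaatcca
Nusap1: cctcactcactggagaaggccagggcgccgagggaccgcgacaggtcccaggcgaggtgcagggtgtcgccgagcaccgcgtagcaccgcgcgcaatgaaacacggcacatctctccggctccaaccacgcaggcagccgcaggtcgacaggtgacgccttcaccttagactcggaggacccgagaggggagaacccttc

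Aurka, Plk1, Ttk, Cdc20 and Zwint all hold CHR and CCAAT letters in these 200 bases, and Nusap1 holds none of the 3 kinds of letters there. The median difference was -0.33 over the 23 genes with CHR and CCAAT in the longer window. It was -0.45 over the 21 genes that lacked at least 1 of them. In each of these sets 19 genes had no overlap between groups, against 6.49% of all genes. The difference between the sets was not tested.

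Among the 7 checkpoint genes the differences ran from -0.64 (Bub1) to 0.02 (Mad1l1). Differences between these genes were not tested. Of the 7, 3 were lower at an unadjusted limma p under 0.05, against 3.35% of all genes. Of the same 7, 4 were lower without overlap, against 6.49% of all genes, and the median difference was -0.24. BUB1 is a kinase that marks the centromere and recruits shugoshin. Bub1 signal was 9.50, 9.69 and 9.46 in TKI258 tumors, against 10.03, 10.15 and 10.38 in water tumors. The lowest water tumor lay 0.35 above the highest TKI258 tumor, and the difference was -0.64 ± 0.12 (SE), a 1.56-fold lower level (adjusted p = 0.484). Bub1b encodes BUBR1, a part of the complex that inhibits CDC20. Its signal was 9.27, 9.40 and 9.37 in TKI258 tumors, against 9.68, 9.80 and 9.85 in water tumors (-0.43 ± 0.09, adjusted p = 0.484), again without overlap. Ttk encodes MPS1, the kinase that starts checkpoint signaling at unattached kinetochores. Its signal was 7.97, 8.04 and 7.80 in TKI258 tumors, against 8.18, 8.26 and 8.54 in water tumors (-0.39 ± 0.13, adjusted p = 0.574), without overlap.

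Mad2l1, which encodes the MAD2 protein that binds CDC20, differed by -0.24 ± 0.11, also without overlap. Cdc20 was 8.73, 8.83 and 8.61 in TKI258 tumors, against 8.88, 8.76 and 9.18 in water tumors. The groups overlapped through water replicate 2, and the difference was -0.22 ± 0.13 with a 95% interval of -0.53 to 0.09. Bub3, whose protein carries BUB1 and BUBR1 to the kinetochore, differed by -0.07 ± 0.09 with an interval of -0.28 to 0.14. Mad1l1, which encodes the kinetochore anchor of MAD2, was 8.27, 8.44 and 8.44 in TKI258 tumors, against 8.39, 8.20 and 8.51 in water tumors. It was the only one of the 50 genes with a higher TKI258 mean (0.02 ± 0.11, interval -0.25 to 0.28), and its direction turned with median centring (-0.00038).

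**Figure D4:**
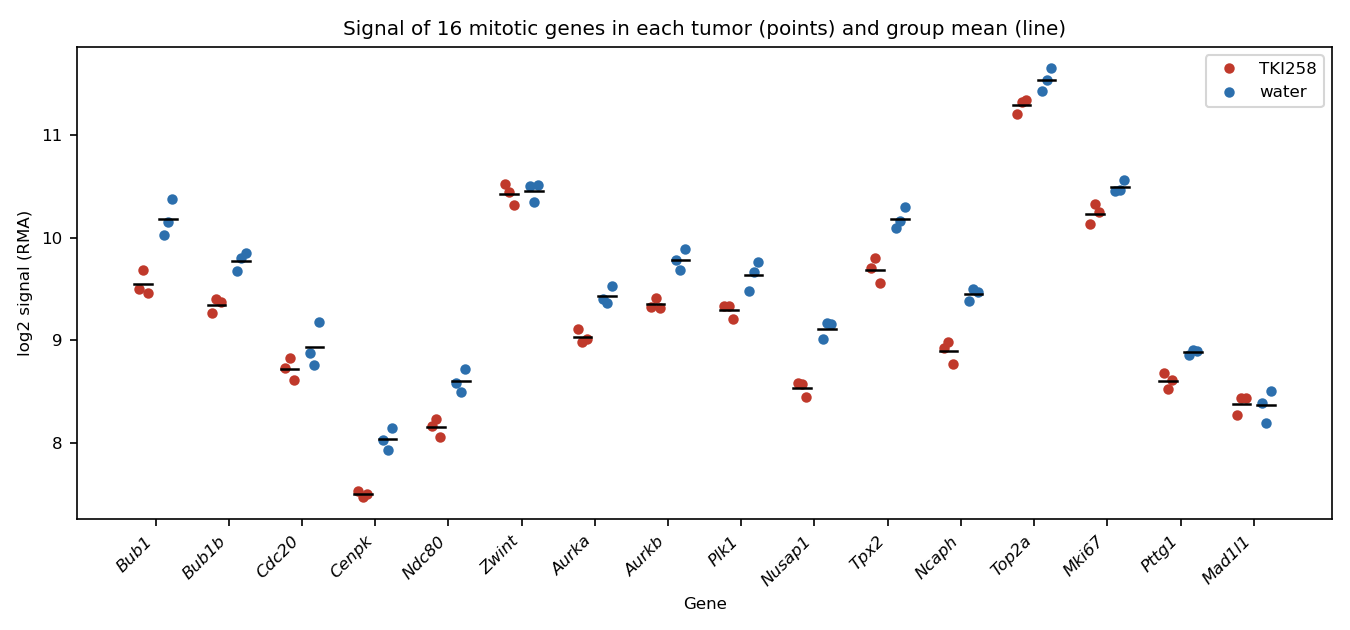
Log2 signal of 16 of the mitotic genes in each tumor, TKI258 and water, with a line at the group mean. The groups separate for Bub1, Cenpk, Nusap1 and Ncaph and overlap for Cdc20, Zwint and Mad1l1.

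Kinetochore genes formed the largest group, and all 18 had a lower mean in TKI258 tumors (17 with quantile normalization). At an unadjusted limma p under 0.05, 13 were lower, against 3.35% of all genes. Without overlap 15 were lower, against 6.49% of all genes, and the median difference was -0.41. The inner kinetochore is a constitutive network of CENP proteins that sits on CENP-A chromatin. Of that network Cenpk was 7.53, 7.47 and 7.50 in TKI258 tumors, against 8.03, 7.93 and 8.15 in water tumors. The TKI258 tumors lay within 0.06 of each other and 0.40 below the lowest water tumor (-0.54 ± 0.09, 1.45-fold lower, adjusted p = 0.484). Cenpl was 7.10, 7.14 and 7.08 in TKI258 tumors, against 7.49, 7.72 and 7.64 in water tumors (-0.51 ± 0.09, adjusted p = 0.484), without overlap. Cenpp had the largest difference of the group but a wider spread (-0.62 ± 0.18), and Cenpi, Cenpq, Cenpn and Cenph differed by -0.45, -0.44, -0.38 and -0.36. Cenpm (-0.13 ± 0.13) overlapped between groups. Cenpa, which encodes the centromeric histone itself, differed by -0.19 ± 0.08 without overlap.

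Differences of the outer kinetochore genes ran from -0.51 (Knstrn) to -0.02 (Zwint). The 4 genes of the NDC80 complex, which grips the microtubule, differed by -0.45 ± 0.10 (Ndc80), -0.43 ± 0.10 (Spc25), -0.36 ± 0.10 (Nuf2) and -0.34 ± 0.11 (Spc24), and none of them overlapped between groups. Zwilch encodes a subunit of the complex that brings dynein and MAD1 to kinetochores. Its signal was 8.79, 8.85 and 8.73 in TKI258 tumors, against 9.18, 9.23 and 9.48 in water tumors (-0.50 ± 0.11, adjusted p = 0.490). Knstrn, which encodes a spindle and kinetochore adaptor, differed by -0.51 ± 0.11, and both genes were without overlap. The motor gene Cenpe (-0.22 ± 0.14) overlapped between groups, and Cenpf differed by -0.20 ± 0.09 without overlap. Zwint, whose protein binds the KNL1 scaffold, was 10.52, 10.45 and 10.32 in TKI258 tumors, against 10.50, 10.35 and 10.51 in water tumors. These ranges almost coincided (-0.02 ± 0.10, interval -0.25 to 0.21), and the sign turned with quantile normalization (0.024).

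The 8 genes of the mitotic kinases and the chromosomal passenger complex were the most uniform group. All 8 were lower at an unadjusted limma p under 0.05, against 3.35% of all genes. All 8 were also lower without overlap, against 6.49% of all genes, and the differences ran only from -0.48 to -0.34. Aurkb encodes the kinase of the passenger complex, which corrects faulty attachments. Its signal was 9.33, 9.41 and 9.32 in TKI258 tumors, against 9.78, 9.69 and 9.89 in water tumors (-0.43 ± 0.09, 1.35-fold lower, adjusted p = 0.484). The other passenger genes were lower by like amounts, with -0.40 ± 0.10 for Cdca8 (borealin), -0.35 ± 0.09 for Birc5 (survivin) and -0.35 ± 0.10 for the scaffold gene Incenp.

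Aurka, whose kinase acts at centrosomes and spindle poles, was 9.11, 8.98 and 9.01 in TKI258 tumors, against 9.40, 9.36 and 9.53 in water tumors (-0.40 ± 0.09, adjusted p = 0.529). Nek2, which encodes a kinase of centrosome separation, was 9.22, 9.22 and 9.04 in TKI258 tumors, against 9.52, 9.56 and 9.83 in water tumors (-0.48 ± 0.11, adjusted p = 0.546). Plk1, which encodes a kinase needed from mitotic entry to cytokinesis, was 9.34, 9.34 and 9.21 in TKI258 tumors, against 9.48, 9.67 and 9.76 in water tumors (-0.34 ± 0.10, adjusted p = 0.574). In all 3 the highest TKI258 tumor stayed below the lowest water tumor, by 0.25 for Aurka, 0.31 for Nek2 and 0.15 for Plk1. Plk4, the kinase gene of centriole duplication, differed by -0.39 ± 0.12.

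Spindle and cytokinesis genes were lower without overlap in 6 of 6, against 6.49% of all genes, with a median difference of -0.43. Nusap1, which encodes a microtubule-binding protein of the spindle, had the smallest p of the 50 genes. It was 8.59, 8.58 and 8.45 in TKI258 tumors, against 9.01, 9.17 and 9.16 in water tumors. The gap between groups was 0.43 and the difference -0.58 ± 0.09, a 1.49-fold lower level (adjusted p = 0.484). Tpx2, which encodes the spindle activator of Aurora A, was 9.71, 9.80 and 9.56 in TKI258 tumors, against 10.10, 10.16 and 10.30 in water tumors (-0.50 ± 0.10, adjusted p = 0.484). Anln, which encodes the cleavage furrow protein anillin, was 10.65, 10.72 and 10.60 in TKI258 tumors, against 10.99, 11.14 and 11.23 in water tumors (-0.47 ± 0.10, adjusted p = 0.484). The groups were apart by 0.31 for Tpx2 and by 0.27 for Anln. Prc1, which encodes the bundler of the central spindle, differed by -0.40 ± 0.10, and Ect2, which encodes the exchange factor that activates RhoA at the furrow, by -0.28 ± 0.11. The smallest difference was that of the spindle pole gene Aspm, at 8.68, 8.72 and 8.62 in TKI258 tumors, against 8.84, 8.78 and 8.89 in water tumors (-0.16 ± 0.08, adjusted p = 0.658).

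**Figure D5:**
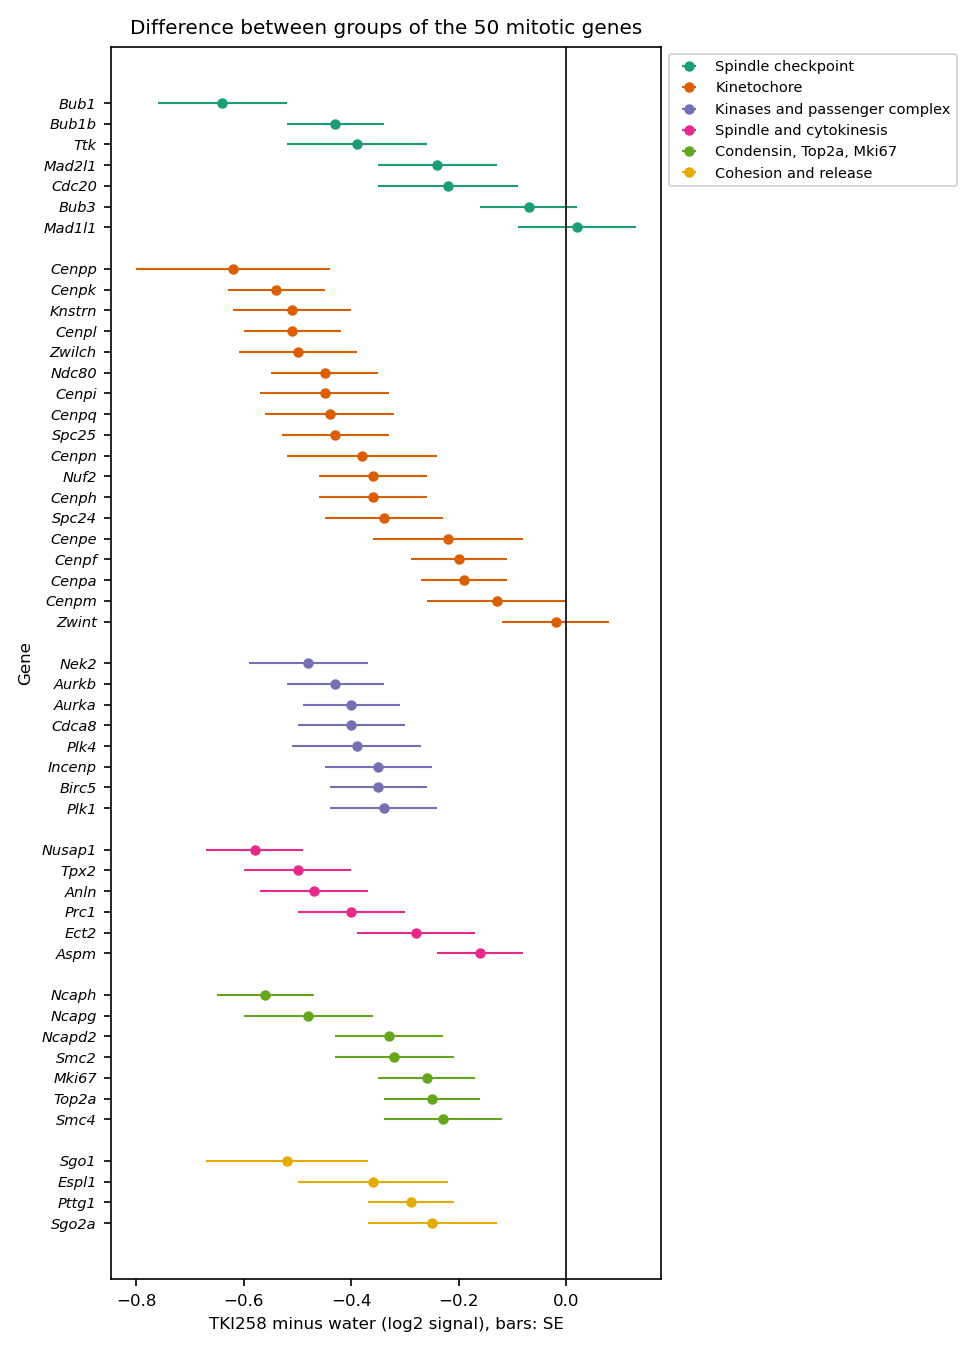
Difference TKI258 minus water (log2 signal) with its SE for each of the 50 genes, ordered within role groups. On the values as deposited all but Mad1l1 (0.02) lie below 0, with Mad1l1 and Zwint turning in sign under another scaling, and the 8 kinase and passenger genes lie between -0.48 and -0.34.

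All 7 genes of condensin I, Top2a and Mki67 had a lower mean in TKI258 tumors, with a median difference of -0.32. At an unadjusted limma p under 0.05, 6 were lower, against 3.35% of all genes. Ncaph and Ncapg had the largest differences of the 7. Ncaph, the kleisin of the complex, was 8.93, 8.98 and 8.77 in TKI258 tumors, against 9.38, 9.50 and 9.47 in water tumors. This left a gap of 0.40 (-0.56 ± 0.09, 1.47-fold lower, adjusted p = 0.484). Ncapg was 9.21, 9.44 and 9.34 in TKI258 tumors, against 9.75, 9.66 and 10.02 in water tumors (-0.48 ± 0.12, adjusted p = 0.562). Ncapd2 was 8.74, 8.86 and 8.76 in TKI258 tumors, against 9.04, 9.04 and 9.26 in water tumors (-0.33 ± 0.10, adjusted p = 0.574). All 3 were without overlap. Smc2 differed by -0.32 ± 0.11. Smc4 was 10.02, 10.04 and 10.26 in TKI258 tumors, against 10.21, 10.34 and 10.47 in water tumors (-0.23 ± 0.11, adjusted p = 0.649), with TKI258 replicate 3 above water replicate 1. Differences between subunits were not tested. SMC2 and SMC4 also belong to condensin II.

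Top2a, which encodes the topoisomerase that untangles sister chromatids, and Mki67, the gene of the proliferation marker Ki-67, differed less than the median of the 50 genes. Mki67 was 10.13, 10.33 and 10.25 in TKI258 tumors, against 10.46, 10.47 and 10.56 in water tumors (-0.26 ± 0.09, adjusted p = 0.594), without overlap. Top2a was 11.21, 11.32 and 11.34 in TKI258 tumors, against 11.43, 11.54 and 11.65 in water tumors (-0.25 ± 0.09). Top2a was the only one of the 50 genes with another probe set, and that one was 4.76, 5.15 and 4.96 in TKI258 tumors, against 5.37, 5.45 and 5.67 in water tumors (-0.54 ± 0.13, adjusted p = 0.551). Both probe sets were without overlap and lower in TKI258 tumors.

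The 4 genes of cohesion and its release were lower without overlap in 4 of 4, against 6.49% of all genes, with a median difference of -0.33. Sgo1, which encodes the protector of centromeric cohesin, was 8.33, 8.25 and 8.18 in TKI258 tumors, against 8.61, 8.60 and 9.10 in water tumors (-0.52 ± 0.15, adjusted p = 0.574). Water replicate 3 stood above the other water tumors for this gene. Pttg1, which encodes securin, the inhibitor of separase, was 8.68, 8.53 and 8.61 in TKI258 tumors, against 8.86, 8.91 and 8.90 in water tumors (-0.29 ± 0.08, adjusted p = 0.573). Espl1, which encodes separase, was 7.62, 7.69 and 7.44 in TKI258 tumors, against 8.01, 7.70 and 8.14 in water tumors (-0.36 ± 0.14, adjusted p = 0.604), and the gap between groups was only 0.01. Sgo2a was 9.48, 9.51 and 9.29 in TKI258 tumors, against 9.61, 9.56 and 9.86 in water tumors (-0.25 ± 0.12, adjusted p = 0.647). Sgo2a has a close copy, Sgo2b, and the signal of the 2 genes may not be fully separate.

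Further genes of the same machinery were read from lists of 81 genes. Of these, 72 had a lower TKI258 mean, 40 were lower at an unadjusted limma p under 0.05 and 0 higher, against 3.35% and 3.79% of all genes, and 0 passed after adjustment (lowest adjusted p = 0.484). The median difference was -0.25. Among centromere and kinetochore genes 18 of 23 were lower at that p, with a median of -0.42. Knl1, the scaffold on which the checkpoint assembles, was 9.08, 9.32 and 9.08 in TKI258 tumors, against 9.65, 9.76 and 9.77 in water tumors (-0.57 ± 0.10), without overlap. Ska3 (-0.71 ± 0.13), of the complex that couples NDC80 to microtubules, and Dsn1 (-0.48 ± 0.09), of the MIS12 complex, had the next smallest p. Spindle and cytokinesis genes were lower at that p in 14 of 17, with a median of -0.41, led by Hmmr (-0.65 ± 0.11), Spag5 (-0.57 ± 0.10) and Mastl (-0.63 ± 0.11), whose kinase restrains the phosphatase PP2A during mitosis.

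The anaphase-promoting complex and cohesin differed less. Of 18 genes of the anaphase-promoting complex and its regulators, 2 (11.1%) were lower at an unadjusted limma p under 0.05, and the median difference was -0.09. The matching share was 3.35% of all genes and 5.29% of the genes above the median signal. The 2 lower genes were Ube2c (-0.25 ± 0.09), the ubiquitin-conjugating enzyme of the complex, and Fbxo5 (-0.32 ± 0.12), its inhibitor EMI1. Among the structural subunits with a lower mean, Anapc5 had the smallest p (-0.21 ± 0.12), and its groups overlapped. Anapc1 and Cdc27 differed by -0.04 ± 0.09 and -0.15 ± 0.10, and Cdc26 and Anapc13 by 0.23 ± 0.12 and 0.19 ± 0.09. Cdc26 and Anapc13 were higher without overlap, against 8.66% of all genes. Of the 18 genes, 4 were lower without overlap, against 6.49% of all genes. Of 11 cohesin and condensin II genes, 2 (18.2%) were lower at an unadjusted limma p under 0.05, against 3.35% of all genes. Both were of condensin II: Ncapd3 (-0.35 ± 0.09) and Ncapg2 (-0.38 ± 0.11). The cohesin ring genes Smc1a, Smc3 and Rad21 differed by -0.07 ± 0.09, -0.07 ± 0.11 and -0.12 ± 0.09. Differences between the lists were not tested.

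Of 12 genes of the factors that bind mitotic promoters, 4 were lower at an unadjusted limma p under 0.05, against 3.35% of all genes. The median difference was -0.23. Foxm1 was 8.17, 8.26 and 8.23 in TKI258 tumors, against 8.59, 8.62 and 8.87 in water tumors (-0.47 ± 0.10, adjusted p = 0.500). Mybl2 was 7.87, 8.19 and 8.09 in TKI258 tumors, against 8.56, 8.37 and 8.73 in water tumors (-0.51 ± 0.13, adjusted p = 0.567). Both activators were without overlap between groups. Lin9 and Lin54, of the core shared by the repressive and activating complexes, differed by -0.32 ± 0.10 and -0.33 ± 0.11. The NF-Y genes differed by -0.06 ± 0.10 (Nfya), -0.24 ± 0.10 (Nfyb) and 0.02 ± 0.08 (Nfyc). The remaining genes of the list all overlapped between groups. They were Rbl1 (-0.26 ± 0.13), Lin52 (-0.21 ± 0.11), Lin37 (-0.13 ± 0.10), E2f4 (-0.09 ± 0.11) and Rbl2 (-0.04 ± 0.20).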

How the data were processed

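RNA from 6 tumors was amplified, biotin-labelled and hybridized to Affymetrix arrays, per the labels' protocols. The values deposited are RMA summaries of each probe set on the log2 scale; RMA, affy and limma are the tools listed per the submitters' processing notes. Their versions, the genome build and scan batches are not stated there. The table held 34760 probe sets, of which 21640 named 1 gene in the platform annotation, 1321 several and 11799 none. TKI258 was compared with water in limma 3.58.1 (R 4.3.3), fitted on all probe sets with group as the only term and eBayes, two-sided, without a filter. P-values were adjusted by Benjamini-Hochberg over all probe sets (threshold 0.05). With 3 tumors a group, an exact permutation test cannot go below p = 0.1, and the number of arrays limits precision. Deviations from the group means correlated at -0.232, 0.186 and 0.00897 between same-numbered tumors of the groups. Between tumors of unlike number the correlations ran from -0.279 to 0.309. No pairing was used, and these values cannot exclude a shared batch.

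The genes, role groups and lists were chosen with earlier results of these data known. Values in every tumor are given for the 3 genes with the smallest p and the gene with the largest p in each role group, and for Mki67, Aurka, Aurkb, Plk1, Bub1 and Cdc20. Of the further lists, up to 3 genes per list and direction with the smallest p were named. Tumor values of Top2a, Krt8 and Krt18 were chosen after they were seen. The genes Krt7, Cldn3, Lin54, Nfya, Nfyb, Nfyc, Anapc1, Cdc27, Smc1a and Smc3 were likewise chosen after their values were seen. So were Rbl1, Rbl2, E2f4, Lin37 and Lin52. The alternatives were a low-signal filter, quantile normalization, median centring, a replicate block, a trend and robust prior, array weights, arrays left out, the mean of a gene's probe sets, a stricter p and a shorter promoter window.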

Additional observations from a re-analysis of the deposited data

How the results depend on the processing

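The count of genes passing the adjusted threshold stayed at 0 of 50 under all 14 alternatives, with a lowest adjusted limma p of 0.296 (array weights). The count lower at an unadjusted p under 0.05 was 38 of 50, between 30 and 39 with single arrays left out, 35 with the replicate block, 43 with array weights and 33 without both TKI258 replicate 3 and water replicate 1; it was 21 at the stricter threshold of 0.01. The median difference of -0.37 ran from -0.42 without water replicate 1 to -0.29 without water replicate 3, the tumor with the highest value of 42 genes, and no overlap was seen in 40 genes after quantile normalization against 43. The count of lower genes among the 81 further genes, 40, was 28 without water replicate 3, 35 with the replicate block and 28 without the 2 arrays high in B cell markers. Of 700 single-gene values, 10 turned in sign, all of Mad1l1 and Zwint, whose differences lay near 0. Mad1l1 was -0.00038 with median centring, -0.056 with array weights, and ran from -0.068 to 0.091 with single arrays left out, with values of -0.011, -0.0096 and -0.068 without TKI258 replicate 2, TKI258 replicate 3 and water replicate 2. Zwint was 0.024 with quantile normalization, ran from -0.072 to 0.035 with single arrays left out, with values of 0.035, 0.0042 and 0.01 without TKI258 replicate 3, water replicate 1 and water replicate 3, and was 0.059 with the 2 B cell-rich tumors removed; the cause was not tested. The replicate block changed no adjusted call; at an unadjusted p under 0.05, Cenpn (0.0556), Ect2 (0.0799) and Espl1 (0.0689) no longer passed in limma. In the promoter window of 200 bases, CHR with CCAAT was found in 47.7% of the mitotic genes' promoters, against 4.5% of all.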
